A study of Mus musculus with 23 samples.

Results

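Tumors of mice without the glucagon receptor were compared with non-tumor pancreas of mice of the same genotype. The comparison took the 7 tumor libraries and the 8 non-tumor libraries of the tissue table, 15 of the 23 RNA-seq libraries of the study, and tested 10220 of the 22412 genes listed, those with at least 1 RPKM (reads per kilobase of gene, scaled to the reads of the library) in at least 7 libraries. Both groups are labelled as homozygous knockouts of Gcgr with treatment none, so the comparison holds no pancreas with an intact receptor. The labels give neither age nor the animal behind a library, and p-values therefore measure the spread between these samples, which may be partly technical. Whether the knockout was made with a Cre driver is not given for the tissue samples. All libraries are of dissected bulk tissue, in which fewer cells of a type and less RNA per cell cannot be told apart.

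The exocrine pancreas is made mostly of acinar cells, which store and secrete digestive enzymes, and of the ducts that drain them. Endocrine cells lie among them in islets, where alpha cells make glucagon, the hormone that drives amino acid breakdown and glucose output in the liver through its receptor. When that receptor is missing, amino acids and glucagon rise in blood and alpha cells multiply. Pancreatic neuroendocrine tumors can form on this background.

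Tumors held much Gcg and less acinar enzyme RNA than non-tumor tissue, and the labels of both groups held against their markers. The 37 acinar enzyme genes made up 1.16 to 29.3% of summed RPKM in tumors (mean 10.5 ± 9.45, SD, n = 7), against 76.1 to 85.7% in non-tumor tissue (mean 81.9 ± 2.71, SD, n = 8). Gcg, encoding glucagon, made up 27.8 to 46.8% of tumor libraries and 0.00477 to 0.0733% of non-tumor libraries. The 13 mitochondrially encoded genes made up 2.37 to 5.69% in tumors and 0.370 to 2.73% in non-tumor tissue. This direction depends on the sum used. Relative to the sum outside acinar enzymes and hormones, they came to 5.63 to 10.7% in tumors (median 6.98). In non-tumor tissue they came to 2.60 to 15.7% (median 10.5), and this difference was not tested. All 3 shares of summed RPKM differed between the groups (two-sided exact permutation tests, p adjusted over the 3 shares: 0.000466 for acinar enzymes, 0.000466 for Gcg and 0.000932 for mitochondrial genes). Gcgr, the targeted gene on chromosome 11, was at 0 RPKM in all 7 tumors and at most 0.135 RPKM in non-tumor tissue, too low to be tested.

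**Figure D1:**
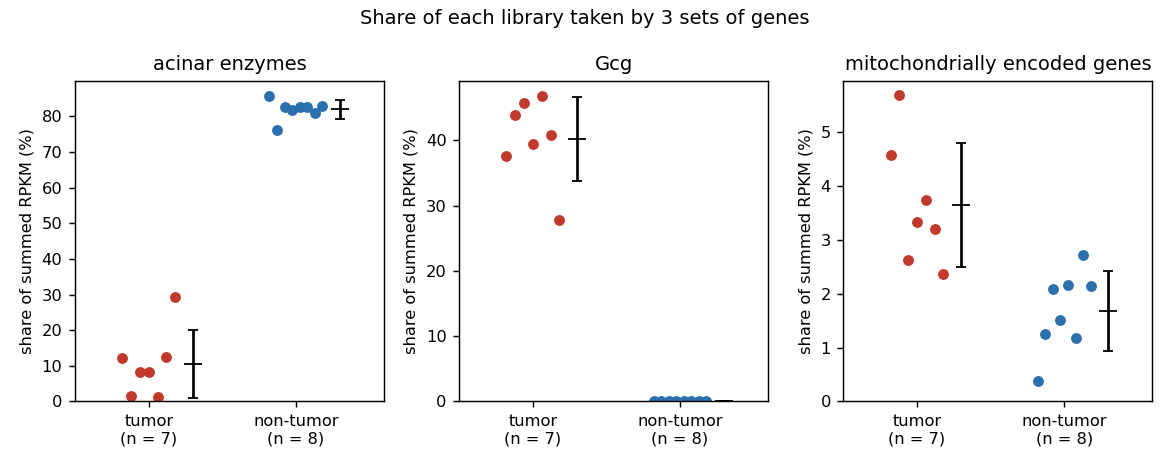
Percent of summed RPKM taken by the 37 acinar enzyme genes, by Gcg and by the 13 mitochondrially encoded genes, with 1 point per library (7 tumors left, 8 non-tumor libraries right) and the mean with SD beside them. Tumors hold 1.16 to 29.3% acinar enzyme RPKM against 76.1 to 85.7% in non-tumor tissue, and tumor 7 stands at 29.3%.

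Acinar transcripts were unevenly spread over the tumors. Tumor 7 held 29.3% of its RPKM in acinar enzymes, tumors 6 and 1 held 12.5 and 12.1%, tumors 3 and 4 held 8.37 and 8.24%, and tumors 2 and 5 held 1.61 and 1.16%. Among non-tumor libraries, library 2 stood apart through antibody genes: leukocyte genes took 2.196% of its RPKM, led by the immunoglobulin light chain Igkc at 6479 RPKM, and library 6 followed with 0.251%. Over the listed genes, whole reads recovered from the RPKM values came to 11088782 to 15605157 reads per tumor and 7084676 to 14071432 reads per non-tumor library. Between 10269 and 11590 genes reached 1 RPKM in a tumor, against 5475 to 8957 in a non-tumor library. Pearson r of log2 values was 0.950 to 0.985 between tumors and 0.867 to 0.987 between non-tumor libraries, and no libraries held identical values.

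Because acinar enzymes fill most of a non-tumor library, every other gene has a small share there, and the scale decides which of the remaining genes count as changed. Differences were therefore taken as log2(RPKM + 1) after centring each library on its median gene, and counts are also given on the deposited scale, where values are as the authors left them. Centring lowered every difference by 1.54 log2 units, so a gene with equal RPKM in both groups, or near 0 in both, reads about that much below 0 on the centred scale. On the centred scale 2927 of 10220 genes (28.6%) rose in tumors and 3746 (36.7%) fell (limma with Benjamini-Hochberg adjustment over all genes, threshold 0.05). On the deposited scale 9271 (90.7%) were higher and 376 (3.68%) lower, and 2837 of the 3746 centred falls were called higher there. Quantile normalization and scaling to the sum of all genes outside acinar enzymes and hormones were run beside these. Called the same way on all 4 scalings were 2768 genes higher (27.1%) and 369 lower (3.61%). The pseudocount of 1 RPKM understates the change of low genes. Below, "rose" and "fell" refer to the centred scale, and the text says where the deposited scale turns a direction. Of the genes tested, 1472 were under 1 RPKM in every non-tumor library and passed the filter through tumors alone, and 523 of these rose. The list counts below should be read beside the shares of all genes tested: 28.6% rose, 36.7% fell and 90.7% were higher as deposited.

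**Figure D2:**
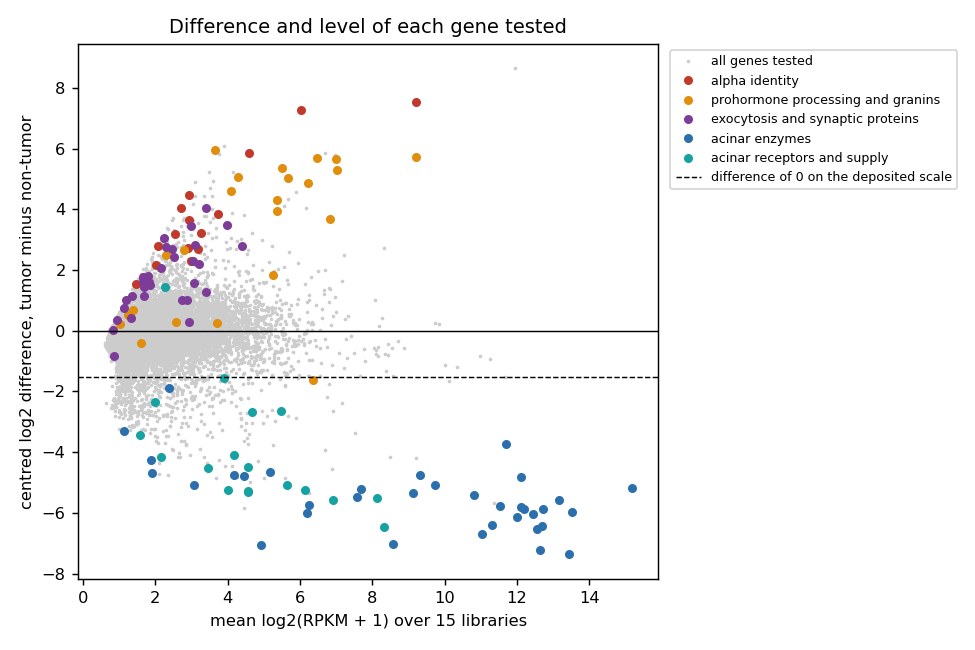
Centred log2 difference (tumor minus non-tumor) against the mean log2(RPKM + 1) over 15 libraries, with 1 point per gene tested and 5 gene lists in colour. The dashed line marks genes with no difference on the deposited scale, at −1.54; acinar enzymes lie between −7.37 and −1.89 and alpha identity genes between 1.54 and 7.53.

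Alpha cell genes other than glucagon rose without exception among those measured. Of 22 alpha identity genes 15 passed the filter and all 15 rose on all 4 scalings, with a median centred difference of 3.22, against −0.08 for all genes tested. The filter let most of them in through tumors, so their count says nothing further about the list. The homeobox gene Irx1 read 61.1 to 82.1 RPKM in tumors (median 66.4), against 0 to 0.272 RPKM in non-tumor tissue (median 0.0700). Its ranges lay far apart in the 2 groups. Tmem27, encoding collectrin, a partner that carries amino acid transporters to the cell surface, read 1027 to 2655 RPKM in tumors (median 1727), against 0.697 to 7.36 RPKM in non-tumor tissue (median 2.38).

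Other hormones did not move together. Of 12 islet and gut hormones tested, Gcg among them, 4 rose, 6 fell and 2 did not pass. Over all genes tested 28.6% rose and 36.7% fell. As deposited 6 of the 12 hormones were higher and 4 lower, beside 90.7% of all genes higher. Peptide YY (Pyy) read 314 to 7669.9 RPKM in tumors (median 2151), against 1.38 to 25.5 RPKM in non-tumor tissue (median 9.24), a difference of 5.84 (SE 0.60, adjusted p = 2.54e-07). Pancreatic polypeptide (Ppy) had a median of 289 RPKM in tumors (88.4 to 3464) and 8.88 RPKM in non-tumor tissue (1.23 to 17.8), a difference of 4.34 (SE 0.74, adjusted p = 7.18e-05). Both were above every non-tumor library in all 7 tumors, as were 13.9% of all genes tested on the centred scale. Ppy was picked after its values were seen, and both genes varied widely among tumors. Galanin (Gal), a neuropeptide, ran the other way with a median of 3.05 RPKM in tumors (0.256 to 25.2) and 88.8 RPKM in non-tumor tissue (67.01 to 132), a difference of −5.83 (SE 0.47, adjusted p = 1.35e-08). Proenkephalin (Penk) fell as well, with a median of 1.49 RPKM in tumors (0.204 to 2.78) and 4.73 RPKM in non-tumor tissue (2.43 to 7.32). The insulin genes Ins1 and Ins2 and the delta cell hormone Sst overlapped between the groups, and their spread was wide. Ins2 read 5.11 to 4173 RPKM in tumors (median 362), against 175 to 5653 RPKM in non-tumor tissue (median 1388), a difference of −4.18 (SE 1.06, adjusted p = 0.00233) whose call was lost under quantile normalization (adjusted p = 0.0804). Tumor 4 was the highest tumor in both insulin genes and in Sst, with 2683 RPKM of Ins1, 4173 of Ins2 and 1410.2 of Sst, and tumors 1 and 3 were the lowest, with 36.2 and 5.11 RPKM of Ins2. Sst read 11.2 to 1410.2 RPKM in tumors (median 245), against 3.32 to 65.3 RPKM in non-tumor tissue (median 33.1), a difference of 1.05 (SE 0.93, adjusted p = 0.332); it was called higher on the deposited scale (2.59) and with array weights (1.87). Reads of Ins1 and Ins2 come from similar sequences and can be split between the genes.

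Proteins that process, sort and store prohormones rose with the alpha cell genes. Of 23 members tested, 18 rose on all 4 scalings, 2 fell and 3 did not pass, while 22 were higher and none lower as deposited, and the median centred difference was 3.95. Of all genes tested, 27.1% were higher on all 4 scalings. Members such as Vgf passed the filter through tumors alone, so the count of rises says nothing further about the list. The convertase Pcsk2, which cuts proglucagon into glucagon, read 1280.5 to 2354 RPKM in tumors (median 1864), against 1.66 to 30.5 RPKM in non-tumor tissue (median 9.296). Carboxypeptidase E (Cpe), which trims the cut peptides, had a median of 1598 RPKM in tumors (1244 to 2088) and 12.00 RPKM in non-tumor tissue (2.802 to 32.1), a difference of 5.29 (SE 0.32, adjusted p = 4.28e-10). Pcsk1, which cuts proglucagon into GLP-1 in the gut and proinsulin in beta cells, read 2.097 to 73.4 RPKM in tumors (median 9.96), against 1.48 to 4.88 RPKM in non-tumor tissue (median 1.76). Its groups overlapped and it did not pass the test, with a difference of 0.30 (SE 0.53, adjusted p = 0.637); without tumor 6, which held 73.4 RPKM, the difference was −0.15. On the deposited scale (1.84) and when scaled to the sum outside acinar enzymes and hormones (1.22) it was called higher. The granins, acidic proteins that condense the granule core, were high in every tumor: secretogranin 2 (Scg2) read 416 to 1347 RPKM in tumors (median 753), against 3.37 to 54.3 RPKM in non-tumor tissue (median 17.3), and chromogranin B (Chgb) read 240.2 to 476 RPKM in tumors (median 326), against 0.871 to 59.03 RPKM in non-tumor tissue (median 3.98), where non-tumor library 7 held 59.03 RPKM. The neuropeptide precursor Vgf read 74.8 to 307 RPKM in tumors (median 236), against 0 to 0.275 RPKM in non-tumor tissue (median 0.111).

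The sequences in front of 3 of these genes are shown because Gcg carries the largest rise and because granin genes are known targets of cyclic AMP response elements. They are the 250 bases before the RefSeq transcription start (GRCm38.p6), written 5′ to 3′ on the gene's strand. Capitals mark the letters TATAAA on that strand and TGACGTCA, the palindromic cyclic AMP response element.
Gcg (chr2:62483654-62483903, minus strand): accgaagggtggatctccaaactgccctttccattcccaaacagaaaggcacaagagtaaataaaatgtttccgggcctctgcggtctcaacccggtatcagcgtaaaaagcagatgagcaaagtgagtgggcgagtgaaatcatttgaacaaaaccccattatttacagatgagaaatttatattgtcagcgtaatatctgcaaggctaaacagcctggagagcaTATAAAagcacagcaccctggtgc
Scg2 (chr1:79440027-79440276, minus strand): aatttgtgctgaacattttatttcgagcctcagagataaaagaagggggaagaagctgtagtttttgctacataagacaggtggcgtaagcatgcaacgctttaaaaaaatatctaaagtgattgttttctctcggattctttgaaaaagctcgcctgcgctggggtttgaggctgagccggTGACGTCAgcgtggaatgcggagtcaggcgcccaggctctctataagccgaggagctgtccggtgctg
Chgb (chr2:132781392-132781641, plus strand): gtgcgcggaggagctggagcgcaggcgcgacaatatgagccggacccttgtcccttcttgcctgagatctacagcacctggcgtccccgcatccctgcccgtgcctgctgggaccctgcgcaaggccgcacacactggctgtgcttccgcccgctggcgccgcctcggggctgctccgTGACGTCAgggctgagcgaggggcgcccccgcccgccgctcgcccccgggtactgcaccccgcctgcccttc
In Gcg TATAAA begins 24 bases before the start and TGACGTCA is absent from the window. In Scg2 and Chgb TGACGTCA begins 68 and 72 bases before the start. In windows from 250 bases before to 50 bases after the start, TGACGTCA occurred in 4 of the 20 granule gene promoters matched by symbol (20%), in 3.37% of 8189 promoters of genes tested and in 1.88% of all 27025 promoters. A match describes letters, not a bound site.

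Most tested endocrine transcription factors and genes of regulated secretion rose too. Of 13 endocrine transcription factors tested 9 rose, none fell and 4 did not pass, and on the deposited scale 13 were higher. Neurod1, a factor of islet and neuronal differentiation, had a median of 31.9 RPKM in tumors (19.4 to 51.1) and 0.284 RPKM in non-tumor tissue (0 to 1.56). Fev, a factor shared with serotonin neurons, had a median of 13.1 RPKM in tumors (8.79 to 19.6) and 0 RPKM in non-tumor tissue (0 to 0.275). Of 32 exocytosis and synaptic genes 29 rose and 1 fell, and all 32 were higher as deposited, with a median difference of 1.603. Over all genes tested 28.6% rose, 36.7% fell and 90.7% were higher as deposited. Genes such as Fev and Snap25 passed the filter through tumors alone, so these counts say nothing further about the lists. Snap25, a membrane-fusion protein, read 21.5 to 33.1 RPKM in tumors (median 26.1), against 0 to 0.886 RPKM in non-tumor tissue (median 0.366). The neuronal intermediate filament Nefm read 15.8 to 40.5 RPKM in tumors (median 24.6), against 0.0166 to 0.215 RPKM in non-tumor tissue (median 0.0544), and the G protein subunit Gnao1 had a median of 52.4 RPKM in tumors (37.6 to 63.4) and 0.4700 RPKM in non-tumor tissue (0.0331 to 1.36). None of these 3 ranges overlapped, and 13.9% of all genes tested were so separated upward on the centred scale. Snap25 and Nefm were picked after their values were seen.

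Ion channels rose in most cases, with a few falls. Of 26 genes of excitability 21 rose, 3 fell and 2 did not pass, against 28.6% of all genes rising and 36.7% falling. As deposited 24 were higher and 2 lower. Genes such as Gria2 passed the filter through tumors alone, so the count of rises says nothing further about the list. Kcnk16, a potassium channel typical of islets, read 76.04 to 110.4 RPKM in tumors (median 91.3), against 0.371 to 1.94 RPKM in non-tumor tissue (median 0.782), a difference of 4.03 (SE 0.12, adjusted p = 2.01e-13). The subunits of the ATP-sensitive potassium channel, which couples fuel to electrical activity, were both higher. Abcc8 had a median of 130.1 RPKM in tumors (89.1 to 171) and 1.43 RPKM in non-tumor tissue (0.313 to 4.77), and Kcnj11 had a median of 25.9 RPKM in tumors (23.4 to 31.8) and 0.305 RPKM in non-tumor tissue (0.0795 to 1.32). Gria2, a glutamate receptor subunit, read 11.1 to 32.3 RPKM in tumors (median 16.2), against 0 to 0.0671 RPKM in non-tumor tissue (median 0.0218). In the other direction the potassium channel Kcnq1 read 0.381 to 2.51 RPKM in tumors (median 1.04), against 4.25 to 7.68 RPKM in non-tumor tissue (median 5.87), a difference of −3.23 (SE 0.18, adjusted p = 1.65e-10), and it was lower on all 4 scalings.

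Of 13 receptors for nutrients and hormones, 9 rose and 4 fell, against 28.6% of all genes rising and 36.7% falling. As deposited 10 were higher and 3 lower. Genes such as Gpr119 and Oxtr passed the filter through tumors alone, so the count of rises says nothing further about the list. Gpr119, a receptor for lipid amides on islet and gut endocrine cells, read 17.1 to 50.8 RPKM in tumors (median 26.96), against 0 to 0.184 RPKM in non-tumor tissue (median 0.0227), a difference of 3.36 (SE 0.18, adjusted p = 1.32e-10). The oxytocin receptor Oxtr read 12.8 to 32.4 RPKM in tumors (median 24.9), against 0 to 0.281 RPKM in non-tumor tissue (median 0.0439). The calcium-sensing receptor Casr, which also responds to amino acids, had a median of 6.33 RPKM in tumors (4.54 to 9.09) and 0.109 RPKM in non-tumor tissue (0.0288 to 0.4203), a difference of 1.16 (SE 0.12, adjusted p = 1.87e-07). The GLP-1 receptor Glp1r, also listed here with beta cell genes, fell, with a median of 0.846 RPKM in tumors (0.0710 to 7.08) and 3.67 RPKM in non-tumor tissue (1.78 to 4.38) and a difference of −2.51 (SE 0.29, adjusted p = 9.42e-07). Which cells held it was not tested. The prostaglandin E2 receptor Ptger3 and the UDP-glucose receptor P2ry14 also fell on all 4 scalings, with differences of −3.46 and −3.14.

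**Figure D3:**
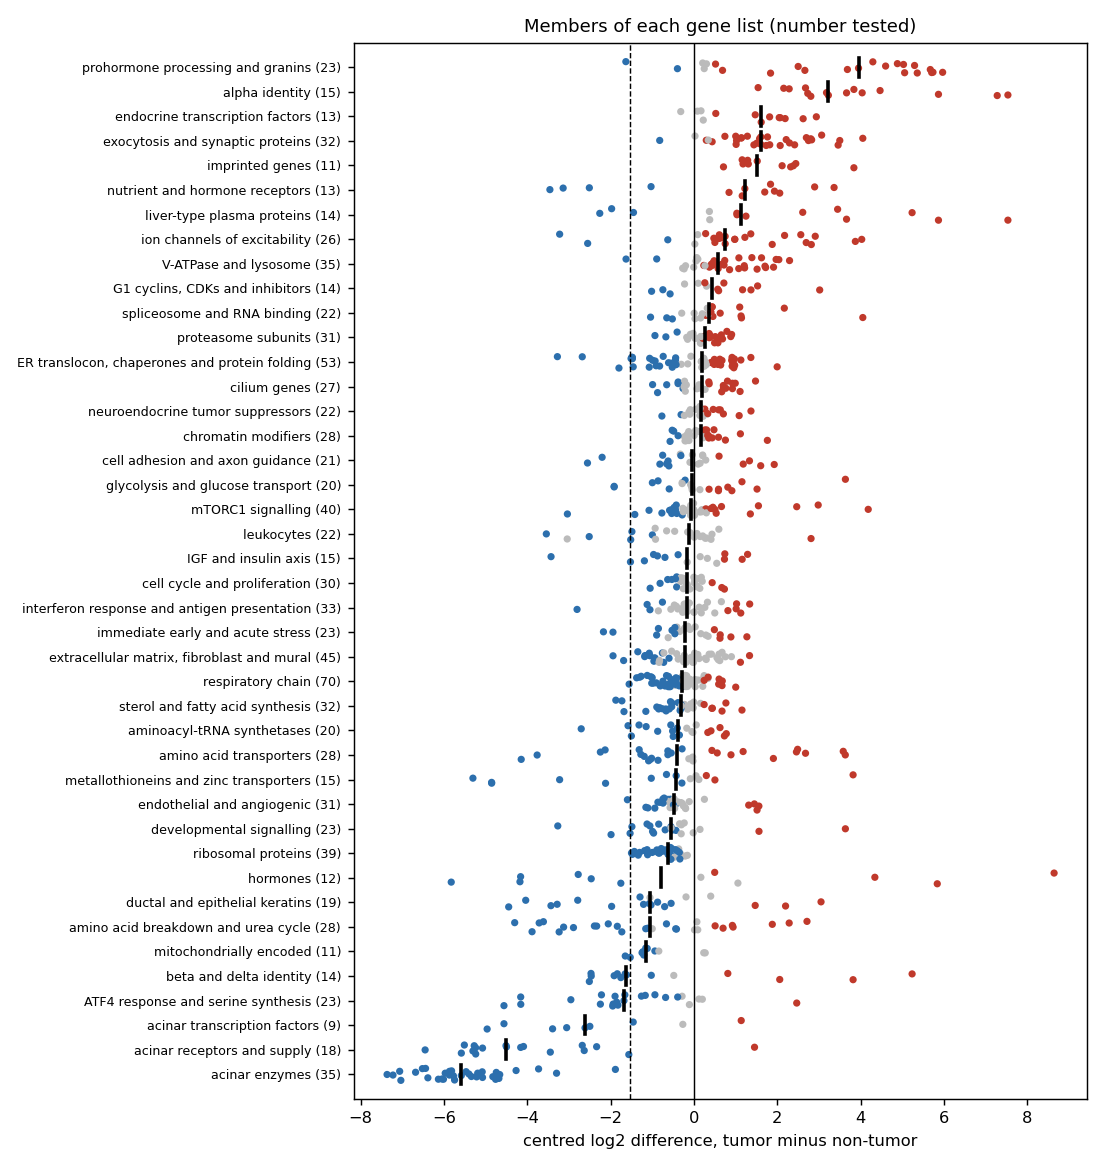
Centred log2 difference (tumor minus non-tumor) of each tested member of the gene lists with at least 9 members tested, in red where higher and blue where lower at an adjusted p under 0.05 and grey otherwise; black bars are list medians. The solid line is 0 on the centred scale and the dashed line, at −1.54, is 0 on the deposited scale, so lists whose points lie between the lines change sign with the scale.

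The acinar programme fell as a whole. All 35 acinar enzymes tested fell, against 36.7% of all genes tested, with a median difference of −5.59. Of the 35, 34 were also lower on the deposited scale, against 3.68% of all genes. In 33 every tumor lay below every non-tumor library on the centred scale, as in 17.2% of all genes tested. The trypsinogen gene Prss2 read 399 to 10860.5 RPKM in tumors (median 2921), against 40234 to 53795 RPKM in non-tumor tissue (median 50440.2), a difference of −5.97 (SE 0.70, adjusted p = 1.21e-06), with its call lost under quantile normalization (adjusted p = 0.0612). Trypsin, elastase and amylase genes are similar in sequence, and reads may be split among family members. Of 9 acinar transcription factors tested 7 fell, 1 rose and 1 did not pass, and 2 were higher and 6 lower as deposited. Rbpjl, the partner that completes the PTF1 complex in mature acinar cells, read 0.847 to 25.01 RPKM in tumors (median 8.700), against 55.2 to 132 RPKM in non-tumor tissue (median 75.7). Ptf1a, its DNA-binding core, had a median of 1.74 RPKM in tumors (0.169 to 11.2) and 8.89 RPKM in non-tumor tissue (6.98 to 16.97), a difference of −3.40 (SE 0.39, adjusted p = 9.38e-07). Bhlha15 (MIST1), which organises acinar secretory granules, had a median of 4.34 RPKM in tumors (3.23 to 10.7) and 17.1 RPKM in non-tumor tissue (9.64 to 20.8). The exception was Creb3l2, a membrane-bound transcription factor of secretory cells, with a median of 20.6 RPKM in tumors (10.7 to 22.4) and 1.64 RPKM in non-tumor tissue (1.13 to 3.97). Of 18 genes for acinar receptors and secretory supply 17 fell, 16 of them also called lower as deposited, among them the cholecystokinin receptor Cckar, which read 0.804 to 39.8 RPKM in tumors (median 8.09), against 45.4 to 75.9 RPKM in non-tumor tissue (median 65.8). Vipr1, a receptor for vasoactive intestinal peptide, was the 1 that rose, with a median of 13.7 RPKM in tumors (9.98 to 17.7) and 0.832 RPKM in non-tumor tissue (0.404 to 1.33).

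Promoters of Cela2a, an elastase gene with the largest fall, and of Prss2 are shown because the PTF1 complex reads an E-box and a TGGGAA box in acinar genes. The 250 bases before the start (RefSeq, GRCm38.p6) are written 5′ to 3′ on the gene's strand, with capitals at TGGGAA and CACCTG on either strand and at TATAAA on the gene's strand.
Cela2a (chr4:141826006-141826255, minus strand): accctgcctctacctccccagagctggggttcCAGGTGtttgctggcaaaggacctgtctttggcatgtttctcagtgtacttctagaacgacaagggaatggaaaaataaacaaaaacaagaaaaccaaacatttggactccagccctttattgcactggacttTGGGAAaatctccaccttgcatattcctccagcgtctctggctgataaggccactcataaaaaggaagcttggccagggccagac
Prss2 (chr6:41521526-41521775, plus strand): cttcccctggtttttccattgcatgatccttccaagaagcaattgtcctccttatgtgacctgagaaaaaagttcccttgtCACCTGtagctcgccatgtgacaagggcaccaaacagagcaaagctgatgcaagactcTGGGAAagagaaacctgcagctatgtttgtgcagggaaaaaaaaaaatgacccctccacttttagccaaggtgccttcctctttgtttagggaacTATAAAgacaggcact
In Cela2a the E-box letters begin 218 and TGGGAA 85 bases before the start. In Prss2 CACCTG begins 169, TGGGAA 111 and TATAAA 16 bases before it. In the windows from 250 bases before to 50 after the start, TGGGAA occurred in 55.2%, CACCTG in 51.7% and TATAAA in 31.0% of the 29 acinar enzyme promoters matched, against 23, 17.5 and 4.21% of the 8189 promoters of genes tested. The marked E-box and TGGGAA letters do not lie side by side in either promoter shown. These shares describe letters, counted for each motif alone without regard to spacing, and binding was not measured.

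Outside acinar enzymes and hormones, 10173 genes were tested, of which 2923 (28.7%) rose and 3705 (36.4%) fell; on all 4 scalings 2764 (27.2%) were higher and 338 (3.32%) lower. Leaving out the alpha cell and granule genes as well, the largest rises were as follows. Eef1a2, the translation elongation factor isoform of neurons and muscle, read 199 to 293 RPKM in tumors (median 258), against 0.0335 to 0.659 RPKM in non-tumor tissue (median 0.202), a difference of 6.09 (SE 0.13, adjusted p = 2.19e-15). Gpx3, a secreted glutathione peroxidase, read 1219 to 2917 RPKM in tumors (median 2013), against 2.94 to 15.1 RPKM in non-tumor tissue (median 11.9), a difference of 5.78 (SE 0.25, adjusted p = 8.96e-12). Non-tumor tissue held little of either, and no tumor came near its range. Cryba2, a member of the lens crystallin family, read 85.3 to 184 RPKM in tumors (median 136), against 0 to 1.103 RPKM in non-tumor tissue (median 0.149). Dapl1, a small protein related to the death-associated protein DAP, read 23.8 to 483 RPKM in tumors (median 315), against 0 to 1.01 RPKM in non-tumor tissue (median 0.205); tumor 1 was the low one and the other 6 held 168 RPKM or more. Map3k15, a kinase of the ASK family, had a median of 132 RPKM in tumors (86.7 to 199) and 0.449 RPKM in non-tumor tissue (0.0583 to 1.16). Hapln1, which links hyaluronan to proteoglycans in the extracellular matrix, read 50.4 to 173 RPKM in tumors (median 94.3), against 0 to 0.245 RPKM in non-tumor tissue (median 0.0512).

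Secreted and membrane proteins followed. Retinol-binding protein 4 (Rbp4), the plasma carrier that travels with transthyretin, read 144 to 336 RPKM in tumors (median 215), against 0.1895 to 2.75 RPKM in non-tumor tissue (median 1.01). Angiotensinogen (Agt), the precursor of angiotensin, varied widely among tumors, with a median of 120.2 RPKM in tumors (28.99 to 518) and 0.551 RPKM in non-tumor tissue (0.0644 to 1.07), and tumor 7 held 518 RPKM. Pappa2, a protease that frees insulin-like growth factors from their binding proteins, read 30.3 to 169.8 RPKM in tumors (median 107), against 0.0608 to 0.738 RPKM in non-tumor tissue (median 0.187). The amyloid precursor relative Aplp1 had a median of 600.4 RPKM in tumors (367 to 664) and 7.03 RPKM in non-tumor tissue (4.94 to 9.93), and the membrane protein Itm2c had a median of 376 RPKM in tumors (234 to 608) and 5.596 RPKM in non-tumor tissue (3.34 to 16.9). The neuronal RNA-binding protein Celf3, which regulates splicing, read 51.03 to 107 RPKM in tumors (median 85.4), against 0.0628 to 1.75 RPKM in non-tumor tissue (median 0.696), a difference of 4.05 (SE 0.19, adjusted p = 2.87e-11). Tmem59l and Zcchc18 completed the 15 largest outside these 4 lists together with Rragb, described with amino acid sensing, and rose by 4.45 and 4.45. Of these 15, 1 had its highest tumor value in tumor 7.

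**Figure D4:**
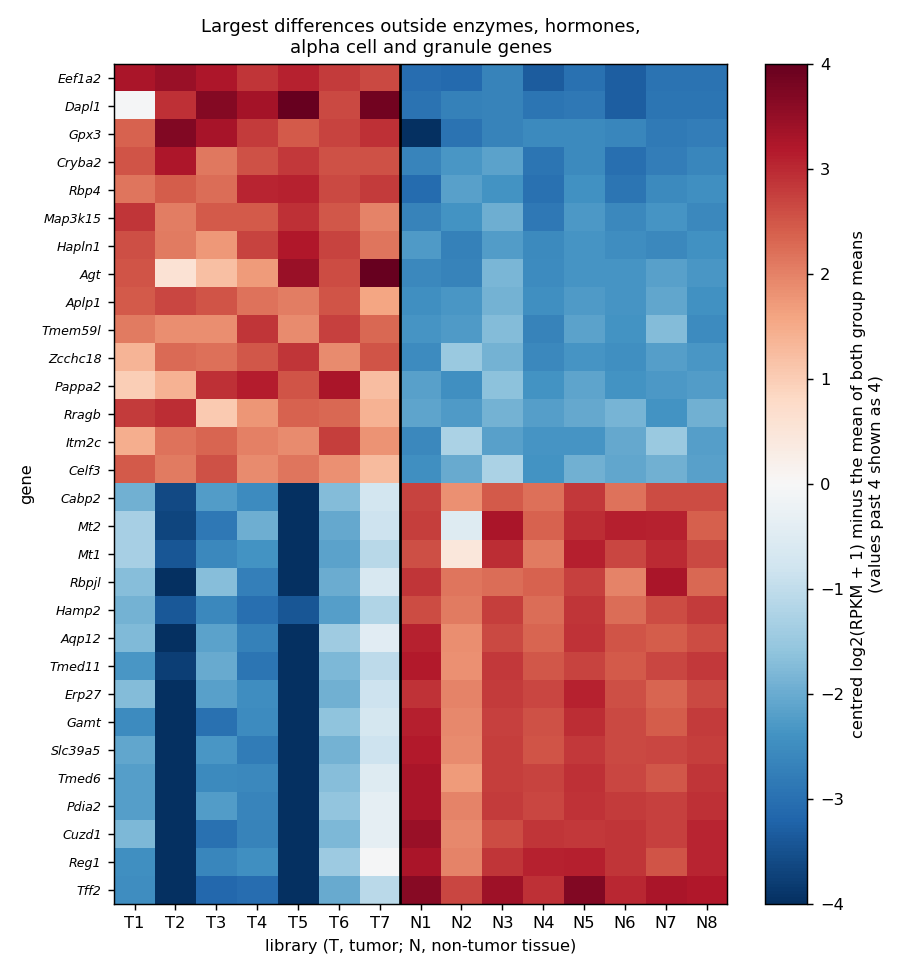
Centred log2(RPKM + 1) of the 15 largest rises and 15 largest falls outside the enzyme, hormone, alpha cell and granule lists, in 7 tumors (T, left) and 8 non-tumor libraries (N, right), as difference from the mean of both group means. All 15 falls have their highest tumor value in tumor 7 and their lowest in tumor 2 or 5, while 1 of the 15 rises is highest in tumor 7.

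The largest falls outside the same 4 lists included further secretory genes of acinar cells. Tff2, a trefoil peptide, read 8.62 to 242 RPKM in tumors (median 65.8), against 1383 to 1895 RPKM in non-tumor tissue (median 1563), and Reg1, a lectin-like protein of pancreatic juice, read 71.3 to 4202 RPKM in tumors (median 697), against 7779 to 12908 RPKM in non-tumor tissue (median 10756). Cuzd1, a zymogen granule membrane protein, had a median of 32.7 RPKM in tumors (4.59 to 155) and 467 RPKM in non-tumor tissue (341 to 588). The pancreatic protein disulfide isomerase Pdia2 read 9.71 to 357 RPKM in tumors (median 82.4), against 817 to 1169.9 RPKM in non-tumor tissue (median 1023), and its relative Erp27 had a median of 21.5 RPKM in tumors (3.398 to 64.5) and 235 RPKM in non-tumor tissue (196 to 278). Cargo adaptors of the early secretory pathway fell with them: the differences were −5.35 for Tmed6 and −5.24 for Tmed11. Aqp12, a water channel of acinar cells, had a median of 15.1 RPKM in tumors (2.04 to 59.3) and 154 RPKM in non-tumor tissue (135 to 187). Gamt, which makes creatine, read 1.04 to 22.9 RPKM in tumors (median 5.02), against 64.9 to 89.6 RPKM in non-tumor tissue (median 80.2), a difference of −5.28 (SE 0.40, adjusted p = 6.85e-09). Hamp2, a hepcidin relative, and Cabp2, a calcium-binding protein, fell with differences of −5.05 and −4.85.

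Low values of these genes went with low acinar shares. All 15 largest falls were highest in tumor 7 and lowest in tumor 2 or 5 among tumors, the libraries with the most and the least acinar enzyme RPKM. Of the 338 genes lower on all 4 scalings outside enzymes and hormones, 277 (81.95%) were highest in tumor 7, against 5.17% of the 2764 genes higher on all 4 and 16.7% of all genes tested. Without tumors 1, 6 and 7, which had the highest acinar shares, the median difference of the 338 genes was −2.81, against −2.60 with all tumors. The part of acinar tissue in the tumor values was not tested further.

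Amino acid carriers split into strong rises and strong falls. Of 28 tested, 10 rose, 15 fell and 3 did not pass, with a median of −0.42, against 28.6% of all genes rising and 36.7% falling. On the deposited scale 22 were higher and 4 lower, so that most of the smaller falls turn there. Slc38a5, a sodium-coupled carrier of glutamine, asparagine and other small neutral amino acids, read 245 to 1528 RPKM in tumors (median 712), against 26.3 to 62.2 RPKM in non-tumor tissue (median 39.3), a difference of 2.49 (SE 0.32, adjusted p = 3.77e-06). It was already present in every non-tumor library. Slc16a10, a carrier of aromatic amino acids, read 26.3 to 87.1 RPKM in tumors (median 62.2), against 0.0892 to 1.22 RPKM in non-tumor tissue (median 0.514), a difference of 3.63 (SE 0.19, adjusted p = 8.49e-11). Slc38a4, a carrier of alanine and other small amino acids, read 48.3 to 95.04 RPKM in tumors (median 83.1), against 0.3403 to 1.92 RPKM in non-tumor tissue (median 1.32). The cationic carrier Slc7a2, which takes up arginine and lysine, had a median of 38.3 RPKM in tumors (26.7 to 81.7) and 1.404 RPKM in non-tumor tissue (0.5095 to 2.24). Slc43a2, for branched-chain and aromatic amino acids, had a median of 28.02 RPKM in tumors (22.2 to 36.8) and 0.733 RPKM in non-tumor tissue (0.191 to 2.07). Every tumor lay above every non-tumor library in these 5 genes, 3 of which (Slc38a4, Slc7a2 and Slc43a2) were picked after their values were seen; 13.9% of all genes tested were so separated upward on the centred scale.

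The carriers that fell on all 4 scalings were 4 in number. Slc38a3, a glutamine carrier, read 0.195 to 15.3 RPKM in tumors (median 3.32), against 17.7 to 32.02 RPKM in non-tumor tissue (median 23.3), a difference of −4.15 (SE 0.41, adjusted p = 1.5e-07). Slc6a9, a glycine carrier, read 0.464 to 8.28 RPKM in tumors (median 2.78), against 9.97 to 17.5 RPKM in non-tumor tissue (median 14.2), a difference of −3.77 (SE 0.31, adjusted p = 1.68e-08). The neutral carrier Slc1a5 had a median of 6.04 RPKM in tumors (4.53 to 8.12) and 8.76 RPKM in non-tumor tissue (7.25 to 16.7), and the cationic carrier Slc7a3 had a median of 0.399 RPKM in tumors (0.0861 to 0.856) and 1.24 RPKM in non-tumor tissue (1.097 to 1.91). In tumor 7 Slc38a3 held 15.3 RPKM and in tumors 2 and 5, which had the lowest acinar shares, 0.195 and 0.695 RPKM.

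**Figure D5:**
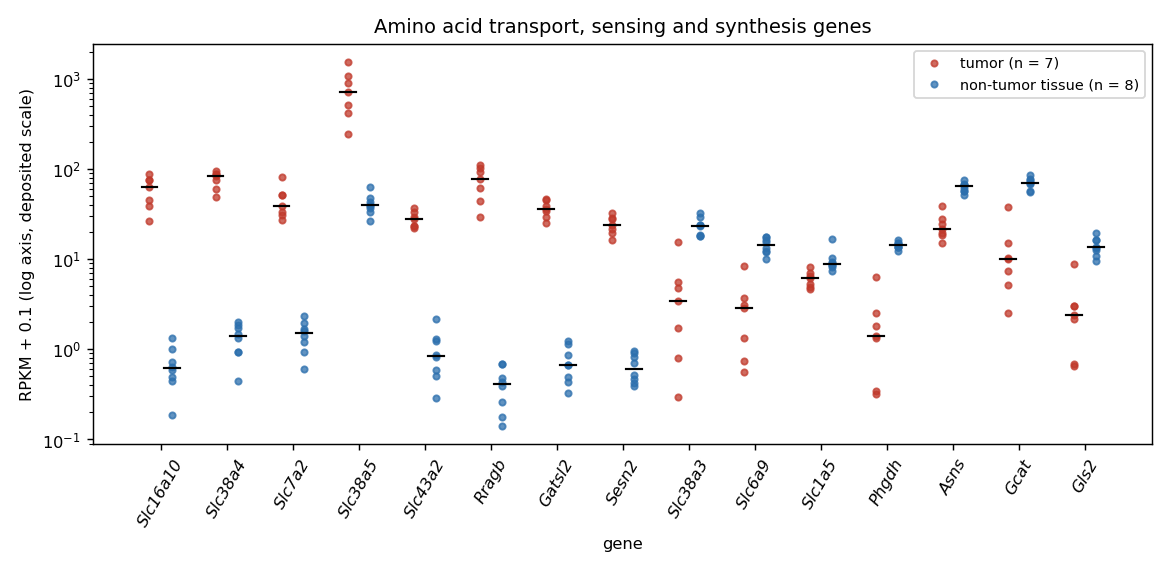
RPKM on the deposited scale, plus 0.1 and on a log axis, of 15 genes for amino acid transport, sensing, synthesis and breakdown, with 1 point per library (7 tumors red and left, 8 non-tumor libraries blue and right) and black bars at group medians. Slc16a10, Slc38a4, Slc7a2, Slc38a5, Slc43a2, Rragb, Gatsl2 and Sesn2 have every tumor above every non-tumor library, and Phgdh, Slc38a3, Slc6a9, Asns, Gcat and Gls2 every tumor below. On the centred scale 13.9% of all genes tested were so separated upward and 17.2% downward, and the shares on the deposited scale were not counted.

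Genes of the mTORC1 pathway, which lets cells grow when amino acids are present, were called about as often as all genes. Of 40 tested 11 rose, 13 fell and 16 did not pass, against 28.6% of all genes rising and 36.7% falling, with a median of −0.07 beside −0.08 for all genes; on the deposited scale 38 were higher and 1 lower. Rragb, 1 of the Rag GTPases that bring mTORC1 to the lysosome, read 29.1 to 109 RPKM in tumors (median 77.4), against 0.0414 to 0.589 RPKM in non-tumor tissue (median 0.316), a difference of 4.18 (SE 0.23, adjusted p = 2.27e-10). Gatsl2, listed elsewhere as Castor2 and related to an arginine sensor, read 25.1 to 46.2 RPKM in tumors (median 35.9), against 0.231 to 1.12 RPKM in non-tumor tissue (median 0.5705). Sesn2, a leucine sensor that restrains the pathway, read 16.02 to 32.3 RPKM in tumors (median 23.8), against 0.294 to 0.863 RPKM in non-tumor tissue (median 0.512), and Sesn3, a relative, had a median of 18.5 RPKM in tumors (6.001 to 22.7) and 0.657 RPKM in non-tumor tissue (0.341 to 2.303). Eif4ebp1, the translation repressor that mTORC1 switches off, fell on all 4 scalings, with a median of 6.74 RPKM in tumors (3.61 to 18.05) and 20.2 RPKM in non-tumor tissue (17.02 to 27.1) and a difference of −3.04 (SE 0.25, adjusted p = 1.77e-08).

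Genes of the amino acid response driven by ATF4 mostly fell on the centred scale, and the activity of ATF4 was not measured. Of 23 tested members 18 fell, 1 rose (Sesn2) and 4 did not pass, with a median of −1.68, against 36.7% of all genes falling and 28.6% rising. On the deposited scale 10 were lower and 9 higher, and 10 were lower on all 4 scalings. Phgdh, the first enzyme of serine synthesis, read 0.2196 to 6.295 RPKM in tumors (median 1.32), against 12.1 to 16.2 RPKM in non-tumor tissue (median 14.1), a difference of −4.16 (SE 0.29, adjusted p = 2.31e-09). Asparagine synthetase (Asns) read 14.8 to 39.2 RPKM in tumors (median 21.3), against 51.2 to 74.4 RPKM in non-tumor tissue (median 63.9), a difference of −2.96 (SE 0.17, adjusted p = 2.65e-10). The hormone Fgf21, which acinar cells secrete, had a median of 0.402 RPKM in tumors (0.104 to 1.91) and 9.76 RPKM in non-tumor tissue (2.25 to 17.1). Nupr1, a stress-induced chromatin protein high in acinar cells, had a median of 42.8 RPKM in tumors (5.83 to 289) and 362 RPKM in non-tumor tissue (149 to 524). Tumor 7 held the highest Phgdh of the tumors, 6.295 RPKM, and tumors 2 and 5 held 0.247 and 0.2196 RPKM. Asns in tumors 2 and 5 stood at 14.8 and 21.3 RPKM and in tumor 7 at 39.2 RPKM. The part of acinar tissue in these values was not tested. Among the 20 aminoacyl-tRNA synthetases 11 fell and 5 rose, but 16 were higher and 1 lower on the deposited scale. That 1 was Wars, the tryptophan enzyme, with a median of 9.29 RPKM in tumors (7.21 to 29.1) and 27.3 RPKM in non-tumor tissue (20.98 to 49.6).

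Enzymes that break down amino acids fell more often than they rose on the centred scale. Of 28 tested 17 fell, 7 rose and 4 did not pass, against 36.7% of all genes falling and 28.6% rising. On all 4 scalings 7 were higher and 11 lower, and as deposited 15 were higher and 11 lower. Gcat, which splits threonine products into glycine, read 2.41 to 37.5 RPKM in tumors (median 9.88), against 55.96 to 86.5 RPKM in non-tumor tissue (median 70.2), a difference of −4.30 (SE 0.36, adjusted p = 2.04e-08). Gls2, the liver-type glutaminase, had a median of 2.31 RPKM in tumors (0.548 to 8.69) and 13.5 RPKM in non-tumor tissue (9.35 to 19.4). The branched-chain transaminase Bcat2 read 6.28 to 19.1 RPKM in tumors (median 10.1), against 30.5 to 36.9 RPKM in non-tumor tissue (median 32.8). Cbs, the first enzyme of transsulfuration, had a median of 10.3 RPKM in tumors (4.67 to 25.1) and 41.1 RPKM in non-tumor tissue (35.3 to 53.96). In tumors 2 and 5 Gls2 stood at 0.583 and 0.548 RPKM, and in tumor 7 at 8.69 RPKM. Rises included Ddc, which makes dopamine and serotonin from their amino acid precursors, at 47.8 to 148 RPKM in tumors (median 80.02), against 1.74 to 5.47 RPKM in non-tumor tissue (median 2.91), a difference of 2.71 (SE 0.23, adjusted p = 2.2e-08). Tyrosine aminotransferase (Tat) had a median of 10.5 RPKM in tumors (5.79 to 27.8) and 0.0428 RPKM in non-tumor tissue (0 to 0.336).

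Metal-handling genes fell more often than they rose on the centred scale, and the reverse held on the deposited scale. Of 15 tested 9 fell, 3 rose and 3 did not pass, against 36.7% of all genes falling and 28.6% rising. On the deposited scale 10 were higher and 5 lower, beside 90.7% of all genes higher. The metallothionein Mt1, which binds zinc and copper, read 2.44 to 23.5 RPKM in tumors (median 9.85), against 32.01 to 139.6 RPKM in non-tumor tissue (median 106), a difference of −4.86 (SE 0.44, adjusted p = 5.11e-08). Mt2 read 3.21 to 43.6 RPKM in tumors (median 17.2), against 24.03 to 235 RPKM in non-tumor tissue (median 159.7), a difference of −4.86 (SE 0.57, adjusted p = 1.18e-06); the 2 genes are close in sequence. Non-tumor library 2 was the lowest of its group in both, at 32.01 RPKM for Mt1 and 24.03 RPKM for Mt2. Among tumors Mt1 was highest in tumor 7 (23.5 RPKM) and lowest in tumor 5 (2.44 RPKM). The zinc importer Slc39a5 read 0.574 to 21.05 RPKM in tumors (median 5.64), against 63.7 to 92.5 RPKM in non-tumor tissue (median 79.1). The zinc exporter Slc30a2 of acinar granules had a median of 0.0285 RPKM in tumors (0 to 0.371) and 2.41 RPKM in non-tumor tissue (1.35 to 4.01). Slc30a8, which loads zinc into hormone granules, rose, at 45.6 to 278 RPKM in tumors (median 219), against 0.338 to 7.96 RPKM in non-tumor tissue (median 2.56), a difference of 3.82 (SE 0.41, adjusted p = 4.1e-07).

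Genes of protein folding in the endoplasmic reticulum had no common direction. Of 53 genes 21 rose, 21 fell and 11 did not pass, against 28.6% of all genes rising and 36.7% falling, and 45 were higher and 2 lower on the deposited scale. Pdia3, a disulfide isomerase of glycoproteins, read 244 to 599 RPKM in tumors (median 359), against 18.5 to 71.8 RPKM in non-tumor tissue (median 30.01), a difference of 2.00 (SE 0.19, adjusted p = 8.67e-08). The chaperone Hsp90b1 had a median of 328 RPKM in tumors (191 to 512) and 35.7 RPKM in non-tumor tissue (29.9 to 156), a difference of 1.36 (SE 0.24, adjusted p = 0.000102). The 2 genes lower on both scales belong to the disposal of misfolded proteins. Edem1 read 4.83 to 21.7 RPKM in tumors (median 8.73), against 23.4 to 51.5 RPKM in non-tumor tissue (median 40.6), a difference of −3.28 (SE 0.22, adjusted p = 1.9e-09), and Sel1l had a median of 12.4 RPKM in tumors (6.79 to 45.04) and 37.4 RPKM in non-tumor tissue (24.2 to 45.96), a difference of −2.68 (SE 0.27, adjusted p = 1.96e-07).

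Most tested genes of lysosomes and the proton pump rose. Of 35 V-ATPase and lysosome genes 25 rose, 24 of them on all 4 scalings, and 2 fell, with a median of 0.58. As deposited 34 were higher and none lower. At least Atp6v0e2 passed the filter through tumors alone, so the count of rises says nothing further about the list. Atp6ap1 and Atp6ap2, accessory subunits of the pump that acidifies lysosomes and granules, rose by 1.97 and 1.91: the median of Atp6ap1 was 129 RPKM in tumors, against 11.7 in non-tumor tissue, and that of Atp6ap2 was 85.2 RPKM in tumors, against 6.59 in non-tumor tissue. Npc2, which moves cholesterol out of lysosomes, read 125 to 179 RPKM in tumors (median 166), against 6.63 to 28.5 RPKM in non-tumor tissue (median 10.7). Of 31 proteasome subunits 17 rose, 3 fell and 11 did not pass, while 31 were higher on the deposited scale. For comparison, 28.6% of all genes tested rose, 36.7% fell and 90.7% were higher as deposited.

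Ribosomes and mitochondria depended on the scale throughout. Of 39 ribosomal proteins tested none rose and 33 fell, but none was lower and 33 were higher on the deposited scale, with a median of −0.62 centred and 0.92 as deposited; 78 are listed, and near-identical pseudogenes can take their reads. Of 70 nuclear genes of the respiratory chain 33 fell and 7 rose on the centred scale, while 67 were higher and none lower as deposited. For comparison, 36.7% of all genes tested fell, 28.6% rose and 90.7% were higher as deposited. Ndufa1, a complex I subunit on the X chromosome, was the largest rise of that list, with a median of 103 RPKM in tumors (92.3 to 159) and 18.04 RPKM in non-tumor tissue (14.8 to 21.3) and a difference of 1.00 (SE 0.19, adjusted p = 0.000169). Mitochondrially encoded genes took a larger share of summed RPKM in tumors, as given above, yet 8 of 11 fell and none rose in centred differences, and 2 were higher and none lower as deposited. Sterol and fatty acid synthesis had 18 of 32 genes down and 6 up when centred, with 29 higher and none lower as deposited.

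In glucose metabolism 8 of 20 genes rose, 6 fell and 6 did not pass, against 28.6% of all genes rising and 36.7% falling. As deposited 18 were higher and none lower, beside 90.7% of all genes higher. Pdk4, a kinase that shuts pyruvate out of the citric acid cycle, read 22.1 to 75.5 RPKM in tumors (median 55.3), against 0 to 0.7402 RPKM in non-tumor tissue (median 0.168), a difference of 3.63 (SE 0.20, adjusted p = 1.82e-10). Acly, which supplies acetyl-CoA for fatty acid synthesis, had a median of 73.8 RPKM in tumors (38.9 to 93.5) and 8.47 RPKM in non-tumor tissue (5.44 to 15.3). Ldha, lactate dehydrogenase, had a median of 6.74 RPKM in tumors (2.901 to 15.7) and 8.67 RPKM in non-tumor tissue (6.498 to 23.3), a centred difference of −1.92 (SE 0.23, adjusted p = 1.42e-06) and a deposited one of −0.38.

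Most genes of cell division did not pass the test on the centred scale. Of 30 tested 3 rose, 7 fell and 20 did not pass, against 28.6% of all genes rising and 36.7% falling. All 30 were higher as deposited, as were 90.7% of all genes. Mki67, a marker of cycling cells, read 1.04 to 6.75 RPKM in tumors (median 3.87), against 0.156 to 3.88 RPKM in non-tumor tissue (median 0.542), with tumors and non-tumor tissue overlapping and a centred difference of −0.14 (SE 0.24, adjusted p = 0.639). The mitotic kinase Cdk1 rose, with a median of 8.797 RPKM in tumors (2.56 to 12.6) and 0.697 RPKM in non-tumor tissue (0.415 to 2.78) and a difference of 0.67 (SE 0.21, adjusted p = 0.0117); without tumors 1, 6 and 7 its difference was 0.41 and the call was lost (adjusted p = 0.159). Of 14 G1 regulators tested, 8 rose on all 4 scalings, against 27.1% of all genes, and 3 fell. All 14 were higher as deposited. Genes such as Cdkn2a passed the filter through tumors alone, so the count of rises says nothing further about the list. Cyclin D2 (Ccnd2) read 65.02 to 147 RPKM in tumors (median 112), against 1.799 to 7.65 RPKM in non-tumor tissue (median 4.07), a difference of 3.02 (SE 0.18, adjusted p = 3.34e-10). Inhibitors rose alongside: Cdkn1a (p21) had a median of 20.1 RPKM in tumors (15.4 to 24.9) and 1.57 RPKM in non-tumor tissue (0.696 to 2.63), and Cdkn2a, the locus of p16 and p19ARF, had a median of 6.29 RPKM in tumors (4.36 to 19.5) and 0.0394 RPKM in non-tumor tissue (0 to 0.564).

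Suppressor genes of human pancreatic neuroendocrine tumors were expressed in the tumors. Of 22 in the list 8 rose, 2 fell and 12 did not pass, against 28.6% of all genes rising and 36.7% falling. All 22 were higher as deposited, as were 90.7% of all genes. Men1, encoding menin, had a median of 10.8 RPKM in tumors (8.499 to 11.7) and 2.704 RPKM in non-tumor tissue (2.06 to 3.74), a difference of 0.08 (SE 0.09, adjusted p = 0.453). Daxx, with a median of 9.01 RPKM in tumors, against 1.63 in non-tumor tissue, did not pass the test, with a difference of 0.22 (SE 0.11, adjusted p = 0.0877), but did without non-tumor library 2 (0.29, adjusted p = 0.00889). Its partner Atrx rose slightly, with a difference of 0.46 (SE 0.12, adjusted p = 0.00268). These values are RNA levels and hold no information on mutations.

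Imprinted genes, expressed from 1 parental allele, numbered 24 in the list, of which 11 passed the filter; these 11 were called higher on all 4 scalings. Members such as Peg10 passed the filter through tumors alone, so this count says nothing further about the list. Peg3 read 78.5 to 117 RPKM in tumors (median 96.3), against 0.455 to 2.89 RPKM in non-tumor tissue (median 1.16), a difference of 3.84 (SE 0.16, adjusted p = 8.79e-12). Peg10 varied widely, with a median of 19.4 RPKM in tumors (2.85 to 48.5) and 0.0368 RPKM in non-tumor tissue (0 to 0.164). Gnas, encoding the stimulatory G protein subunit of glucagon-type receptors, read 89.95 to 258 RPKM in tumors (median 233), against 11.01 to 15.9 RPKM in non-tumor tissue (median 13.4), a difference of 2.11 (SE 0.21, adjusted p = 1.5e-07). Mest had a median of 17.4 RPKM in tumors (10.1 to 91.4) and 0.813 RPKM in non-tumor tissue (0.217 to 1.25). In the IGF axis 4 of 15 rose and 7 fell, against 28.6% of all genes rising and 36.7% falling, and 12 were higher and 1 lower as deposited. Without tumor 4 or without non-tumor library 2 the rises numbered 2. The ligand Igf1 was the 1 lower on all 4 scalings, at 1.64 to 12.6 RPKM in tumors (median 4.51), against 15.4 to 22.8 RPKM in non-tumor tissue (median 18.5), a difference of −3.43 (SE 0.27, adjusted p = 8.5e-09). Irs2, an insulin receptor substrate, had a median of 9.04 RPKM in tumors (6.36 to 12.3) and 0.362 RPKM in non-tumor tissue (0.176 to 0.958), a difference of 1.29 (SE 0.12, adjusted p = 1.18e-07).

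Duct genes mostly fell on the centred scale, and keratins went both ways: Krt19 and Krt23 fell, and Krt7 rose. Of 19 tested 13 fell, 3 rose and 3 did not pass, against 36.7% of all genes falling and 28.6% rising. As deposited 9 were higher and 5 lower, beside 90.7% of all genes higher. Krt19, a keratin of duct cells, read 0.326 to 4.64 RPKM in tumors (median 1.28), against 5.75 to 14.2 RPKM in non-tumor tissue (median 6.67), a difference of −3.29 (SE 0.25, adjusted p = 7.97e-09). Sox9, the duct transcription factor, had a median of 0.4997 RPKM in tumors (0.0432 to 2.04) and 2.86 RPKM in non-tumor tissue (1.25 to 4.104), and Muc1, an apical mucin of ducts and acini, read 0.904 to 21.4 RPKM in tumors (median 4.93), against 29.2 to 66.7 RPKM in non-tumor tissue (median 42.8). Muc1 was highest in tumor 7 (21.4 RPKM). Krt7, also a duct keratin, went the other way at 75.9 to 116 RPKM in tumors (median 101), against 0.713 to 7.66 RPKM in non-tumor tissue (median 2.56), a difference of 3.05 (SE 0.25, adjusted p = 1.53e-08), and the epithelial adhesion molecule Epcam had a median of 70.6 RPKM in tumors (56.3 to 133) and 8.88 RPKM in non-tumor tissue (5.61 to 12.98).

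Genes of vessels, matrix and leukocytes gave few rises. Of 31 endothelial and angiogenic genes 4 rose and 13 fell, against 28.6% of all genes rising and 36.7% falling. As deposited 29 were higher and none lower, beside 90.7% of all genes higher. The growth factor Vegfa read 27.7 to 67.1 RPKM in tumors (median 41.9), against 3.11 to 5.42 RPKM in non-tumor tissue (median 5.17), a difference of 1.51 (SE 0.16, adjusted p = 3.79e-07). Rgs5, a pericyte gene, had a median of 38.2 RPKM in tumors (5.17 to 71.7) and 2.91 RPKM in non-tumor tissue (0.842 to 5.65), and Cdh5, the endothelial cadherin, did not pass, with a median of 13.2 RPKM in tumors (3.89 to 18.1) and 4.91 RPKM in non-tumor tissue (1.604 to 7.46). Of 45 matrix, fibroblast and mural genes 2 rose, 13 fell and 30 did not pass, and 32 were higher and none lower as deposited. The rises numbered 7 without tumor 3 and 4 without non-tumor library 6. Collagen Col1a1 had a median of 53.04 RPKM in tumors (5.64 to 129) and 7.62 RPKM in non-tumor tissue (1.05 to 20.8), an overlap between groups and a difference of 0.62 (SE 0.55, adjusted p = 0.336); it was called higher as deposited (2.16) and when scaled to the sum outside acinar enzymes and hormones (1.44). Thrombospondin 1 (Thbs1), an adhesive glycoprotein, rose, with a median of 20.4 RPKM in tumors (6.44 to 52.8) and 2.08 RPKM in non-tumor tissue (0.5702 to 3.51).

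Of 22 leukocyte genes 1 rose and 5 fell, and 13 were higher and none lower as deposited. The falls numbered 3 when tumor 1, 2 or 5 or non-tumor library 2 or 6 was left out. The 1 that rose was Cd2, known as an adhesion molecule of T cells, at 27.5 to 40.3 RPKM in tumors (median 31.1), against 0 to 15.4 RPKM in non-tumor tissue (median 0.107). No other leukocyte gene tested rose with it, and which cells of the tumors held Cd2 was not tested. Ptprc (CD45), carried by all leukocytes, had a median of 3.43 RPKM in tumors (0.603 to 10.9) and 0.5697 RPKM in non-tumor tissue (0.0961 to 22.00), with the highest non-tumor value in library 2, and did not pass, with a difference of −0.92 (SE 0.51, adjusted p = 0.118); without tumor 4, which held 10.9 RPKM, it fell (−1.18, adjusted p = 0.0492). C1qa, a complement gene of macrophages, had a median of 66.04 RPKM in tumors (32.9 to 141) and 18.6 RPKM in non-tumor tissue (3.98 to 54.5) and did not pass either, with a difference of 0.41 (SE 0.33, adjusted p = 0.285). It was called higher as deposited (1.95), scaled to the sum outside acinar enzymes and hormones (1.18), without the filter (0.81) and with array weights (0.64). In antigen presentation and interferon response 5 of 33 rose and 4 fell, against 28.6% of all genes rising and 36.7% falling. As deposited 25 were higher and 1 lower, beside 90.7% of all genes higher. Class I gene H2-K1 rose, with a median of 318 RPKM in tumors (191 to 395) and 32.9 RPKM in non-tumor tissue (17.4 to 206) and a difference of 1.34 (SE 0.31, adjusted p = 0.00113), and non-tumor library 2 held 206 RPKM. The immunoproteasome subunit Psmb10 read 16.8 to 28.7 RPKM in tumors (median 17.8), against 44.6 to 66.5 RPKM in non-tumor tissue (median 48.4), a difference of −2.81 (SE 0.15, adjusted p = 1.58e-10). Adipocyte and peripheral glia genes were mostly under the filter, with 2 of 12 and 3 of 11 members tested.

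Several plasma proteins typical of liver were high in tumors. Of 14 tested 9 rose on all 4 scalings, against 27.1% of all genes, while 3 fell and 2 did not pass. As deposited 11 were higher and none lower. Genes such as Apoa2 passed the filter through tumors alone, so the count of rises says nothing further about the list. Gc, the vitamin D-binding protein, read 236 to 685 RPKM in tumors (median 386), against 0.833 to 2.03 RPKM in non-tumor tissue (median 1.14), a difference of 5.87 (SE 0.18, adjusted p = 2.29e-13). Apolipoprotein A-II (Apoa2) had a median of 37.7 RPKM in tumors (21.6 to 64.5) and 0.195 RPKM in non-tumor tissue (0.148 to 0.824), and the complement inhibitor Serping1 read 141 to 338 RPKM in tumors (median 285), against 1.84 to 24.9 RPKM in non-tumor tissue (median 13.9), a difference of 2.61 (SE 0.33, adjusted p = 2.99e-06). Lipoprotein lipase (Lpl), listed with adipocyte genes, releases fatty acids from plasma lipids. Its median was 113 RPKM in tumors (46.9 to 124) and 9.17 RPKM in non-tumor tissue (7.08 to 14.1).

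Signals of development were mostly lower when centred: 14 of 23 fell and 2 rose, whereas 18 were higher and 2 lower as deposited. Sfrp5, a secreted Wnt antagonist, was the largest rise, at 25.1 to 81.2 RPKM in tumors (median 61.8), against 0.234 to 0.776 RPKM in non-tumor tissue (median 0.5396), a difference of 3.63 (SE 0.22, adjusted p = 4.28e-10). Bmp7, a bone morphogenetic protein, fell, at 0.127 to 2.56 RPKM in tumors (median 0.544), against 3.51 to 5.95 RPKM in non-tumor tissue (median 4.902), a difference of −3.27 (SE 0.21, adjusted p = 1.02e-09). Of 21 adhesion and axon guidance genes 5 rose and 8 fell, with 19 higher and 2 lower as deposited. They were called about as often as all genes tested, of which 28.6% rose, 36.7% fell and 90.7% were higher as deposited. The guidance molecule netrin 1 (Ntn1) had a median of 0.758 RPKM in tumors (0.309 to 4.91) and 3.11 RPKM in non-tumor tissue (2.42 to 4.93), a difference of −2.56 (SE 0.25, adjusted p = 1.74e-07), and the synaptic adhesion protein Nlgn2 had a median of 21.04 RPKM in tumors (7.95 to 33.2) and 0.734 RPKM in non-tumor tissue (0.279 to 1.39). Cilium genes, which islet cells use for a primary cilium, had 12 of 27 up and 6 down, and all 27 were higher as deposited. Ift57, of intraflagellar transport, had a median of 17.96 RPKM in tumors (14.1 to 26.3) and 1.195 RPKM in non-tumor tissue (0.687 to 2.72), a difference of 1.48 (SE 0.14, adjusted p = 1.41e-07).

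Of the RNA-binding and chromatin genes tested, more rose than fell. Of 22 splicing and RNA-binding genes 12 rose and 3 fell, with 22 higher as deposited. At least Celf4 among them passed the filter through tumors alone, so the count of rises says nothing further about that list. For comparison, 28.6% of all genes tested rose, 36.7% fell and 90.7% were higher as deposited. Khdrbs3, a splicing regulator, read 17.2 to 25.7 RPKM in tumors (median 24.03), against 0 to 1.45 RPKM in non-tumor tissue (median 0.906), a difference of 2.17 (SE 0.13, adjusted p = 3.32e-10). Of 28 chromatin modifiers 12 rose and 4 fell, with 28 higher as deposited; Hdac6, a deacetylase of tubulin, had a median of 25.1 RPKM in tumors (14.7 to 26.6) and 1.197 RPKM in non-tumor tissue (0.797 to 1.94), a difference of 1.76 (SE 0.14, adjusted p = 8.64e-09). In acute stress and immediate early genes 5 of 23 rose and 7 fell, with 20 higher and 1 lower as deposited. Myc, a growth-promoting transcription factor, was that 1, with a median of 2.23 RPKM in tumors (1.12 to 6.63) and 4.196 RPKM in non-tumor tissue (2.49 to 9.36) and a difference of −2.17 (SE 0.24, adjusted p = 7.2e-07). The heat shock protein Hsph1 rose, with a median of 19.4 RPKM in tumors (13.2 to 27.9) and 1.85 RPKM in non-tumor tissue (0.853 to 4.96).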

How the data were processed

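Bulk RNA of 7 tumors and 8 non-tumor pancreas samples was sequenced, and 1 table of gene values for both groups was used. Per the submitters' processing notes, CASAVA 1.8 and GSNAP were used with the mouse build GRCm38. The counting tool was not given in the sources used here, nor were the annotation and the use of strand. The authors deposited RPKM values; the file headers name no unit, and the unit was read from the values, in which each gene's values are whole multiples of 1 read to within 0.1 read for all 17573 genes above 0. Reads of antisense or overlapping genes cannot be told apart. The 26 rows with a date in place of a symbol were named by nothing else and were left unnamed.

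Genes with at least 1 RPKM in at least 7 of the 15 libraries were tested. log2(RPKM + 1) was centred on each library's median and fitted with limma 3.58.1 (trend, R 4.3.3) for 7 tumors against 8 non-tumor libraries with no covariate, and p was adjusted by Benjamini-Hochberg over 10220 genes, with a threshold of 0.05. A fold change is therefore on the log2(RPKM + 1) scale. Shares of summed RPKM were compared by two-sided exact permutation tests (scipy 1.17.1). Alternatives covered scaling, pseudocounts of 0.1 and 0.01, filters, array weights, a fold of at least 2, a block for replicate number and leaving out each library; leaving out tumors 1, 6 and 7, or non-tumor libraries 2 and 6, was added after seeing the data. The fit was tested on simulated data. Members and gene lists were chosen with earlier results of these data known.

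Named genes are 8 fixed genes, the 10 largest rises and falls among called genes with groups that do not overlap and a mean of at least 5 RPKM, the 15 largest of each outside enzymes, hormones, alpha cell and granule genes, and the 3 most changed called members of each list with the 1 most changed the other way. This named 175 genes, not all printed; some genes are not reported here. A further 44 were named after their values were seen: Apoa2, Asns, Atp6ap2, Atrx, Bcat2, Bhlha15, C1qa, Casr, Cbs, Cckar, Cdh5, Cdk1, Chgb, Col1a1, Cpe, Daxx, Epcam, Gnas, Gria2, Hsp90b1, Irx1, Kcnj11, Krt19, Mest, Nefm, Oxtr, Pcsk1, Pcsk2, Penk, Ppy, Prss2, Ptprc, Scg2, Serping1, Sesn3, Slc1a5, Slc30a2, Slc38a4, Slc43a2, Slc7a2, Slc7a3, Snap25, Sox9 and Tat. Promoter sequences, gene positions and start sites are from RefSeq, GRCm38.p6, with motifs searched on both strands except TATAAA.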

Additional observations from a re-analysis of the deposited data

Results flagged for a closer look

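In each group of 7 or 8 samples, the distance of the highest or lowest sample to its nearest neighbour was set against the range of the whole group, on the centred log2 scale for genes and in percent for shares of RPKM. Of 312 groups of values examined, 28 held a sample that stood apart, and chance alone would single out about 1 in 20. The ratio of gap to range is given with each, and none of the causes was tested.

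Among tumors, tumor 7 held 29.3% of its RPKM in acinar enzymes, against 1.16 to 12.5% in the other tumors (ratio 0.595). Tumor 1 was the lowest of its group in Dapl1 at 23.8 RPKM against 168 to 483 (ratio 0.667). Tumor 3 was the lowest of its group in Rgs5 at 5.17 RPKM against 27.1 to 71.7 (ratio 0.616) and Cdh5 at 3.89 RPKM against 10.2 to 18.1 (ratio 0.619). Tumor 6 was the highest of its group in Gc at 685 RPKM against 236 to 441 (ratio 0.597) and Epcam at 133 RPKM against 56.3 to 91.1 (ratio 0.646).

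Non-tumor library 1 was the highest of its group in P2ry14 at 11.8 RPKM against 5.97 to 9.22 (ratio 0.648). Non-tumor library 1 was the lowest of its group in Gpx3 at 2.94 RPKM against 10.9 to 15.1 (ratio 0.756) and Serping1 at 1.84 RPKM against 9.06 to 24.9 (ratio 0.538). Non-tumor library 2 was the highest of its group in Mki67 at 3.88 RPKM against 0.156 to 0.9496 (ratio 0.733), Cd2 at 15.4 RPKM against 0 to 1.44 (ratio 0.639), H2-K1 at 206 RPKM against 17.4 to 50.6 (ratio 0.589) and Hsp90b1 at 156 RPKM against 29.9 to 46.95 (ratio 0.745). Non-tumor library 2 was the lowest of its group in Pdia2 at 817 RPKM against 977 to 1169.9 (ratio 0.545), Mt1 at 32.01 RPKM against 78.4 to 139.6 (ratio 0.608), Mt2 at 24.03 RPKM against 125 to 235 (ratio 0.761), Kcnq1 at 4.44 RPKM against 4.25 to 7.68 (ratio 0.546), Lpl at 7.08 RPKM against 8.74 to 14.1 (ratio 0.619), Prss2 at 40234 RPKM against 46624 to 53795 (ratio 0.558), Cbs at 35.3 RPKM against 38.2 to 53.96 (ratio 0.601) and Sox9 at 1.25 RPKM against 2.203 to 4.104 (ratio 0.678). Non-tumor library 3 was the highest of its group in Pappa2 at 0.738 RPKM against 0.0608 to 0.476 (ratio 0.583), Celf3 at 1.75 RPKM against 0.0628 to 1.41 (ratio 0.543), Kcnk16 at 1.902 RPKM against 0.371 to 1.94 (ratio 0.599), Slc16a10 at 1.22 RPKM against 0.0892 to 0.919 (ratio 0.652) and Peg3 at 2.89 RPKM against 0.455 to 2.25 (ratio 0.642). Non-tumor library 6 was the lowest of its group in Dapl1 at 0 RPKM against 0 to 1.01 (ratio 0.568). Non-tumor library 7 was the highest of its group in Chgb at 59.03 RPKM against 0.871 to 12.5 (ratio 0.526). The ratios were taken after centring, so the RPKM of a sample and of its group can overlap where library medians differ.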

How the results depend on the processing

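Counts of calls moved with the scaling, the filter and a fold limit. Against 2927 genes higher and 3746 lower in tumors, the deposited scale gave 9271 and 376, scaling to the sum outside acinar enzymes and hormones 8117 and 721, no filter 5404 and 8439, a mean of at least 5 RPKM 1532 and 1394, and a fold of at least 2 377 and 583. Outside acinar enzymes and hormones, 2923 and 3705 became 9265 and 338, 8112 and 682, 5399 and 8390, 1529 and 1357, and 374 and 544 in the same order. No filter tested 17573 genes and the mean filter 4275. Quantile normalization gave 3335 and 3042, and the split of higher against lower calls was close to even with pseudocounts of 0.1 (3197 and 3120) and 0.01 (3248 and 3100). Gene lists with more members higher than lower numbered 17 of 45, but 40 on the deposited scale and 35 when scaled to the sum; other settings gave 16 to 23. Leaving out 1 library in turn gave 2783 to 2965 higher and 3577 to 3871 lower, 2779 to 2961 and 3537 to 3831 outside enzymes and hormones, and 16 to 18 lists. Without tumors 1, 6 and 7 the counts were 2733 and 3406, and without non-tumor libraries 2 and 6 they were 2853 and 3814. The 3 shares of summed RPKM kept their direction with each library left out and with only the genes that pass the filter. Relative to the sum outside acinar enzymes and hormones, the mitochondrial median was lower in tumors (6.98%) than in non-tumor tissue (10.5%).

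Whether same-numbered samples share an animal is not given. Deviations of same-numbered tumors and non-tumor libraries from their group means correlated between −0.22 and 0.15, and 1 of 7 numbers was its own best match. These correlations cannot decide the question, because no samples known to share an animal were at hand to compare. A replicate block gave 2705 genes higher and 3465 lower, and 16 lists.

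Genes whose sign turned were Mki67, with 1.40 on the deposited scale, 0.12 quantile normalized, 0.96 scaled to the sum, 0.30 and 0.44 with the smaller pseudocounts, 0.27 unfiltered, 0.016 with array weights, 0.0082 and 0.038 without non-tumor library 2 or tumor 3 (−0.25 to 0.038 over all single libraries left out), and 0.030 without non-tumor libraries 2 and 6; Men1, with −0.079 and −0.11 with the smaller pseudocounts and −0.064 with the mean filter; Pcsk1, with −0.15 without tumor 6 (up to 0.602 with another library left out) and −0.28 without tumors 1, 6 and 7; Cdh5, with 1.26 deposited, 0.57 scaled to the sum and 0.12 unfiltered; Ptprc, with 0.62 and 0.19 on the first 2 of these; and C1qa, with −0.018 at a pseudocount of 0.01. None of them was called in the main setting; the cause was not tested. Low genes carry few reads, and their values are the least precise.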

Other observations

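Genes of beta and delta cells did not move together. Of 14 tested, 4 rose on all 4 scalings, 9 fell and 1 did not pass, with a median centred difference of −1.64. Among all genes tested 27.1% were higher on all 4 scalings and 36.7% fell. On the deposited scale 5 were higher and 2 lower, and both of these were lower on all 4 scalings. Those that rose include Rbp4 and the zinc carrier Slc30a8, which alpha cells also express. Slc2a2, the glucose carrier of beta cells and liver, read 0.0202 to 8.78 RPKM in tumors (median 1.65), against 0.326 to 5.12 RPKM in non-tumor tissue (median 1.87), a difference of −1.92 (SE 0.36, adjusted p = 0.000199). Its deposited difference was −0.38 and was not called (adjusted p = 0.371).

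The Reg proteins, lectin-like products of acinar cells under injury, were listed apart from the enzymes. Of 6 tested 3 fell and 3 did not pass, and 2 were lower on all 4 scalings, with none higher and 2 lower as deposited. Among all genes tested 36.7% fell and 3.61% were lower on all 4 scalings. Beside Reg1, Reg3d read 7.99 to 269.8 RPKM in tumors (median 46.4), against 126 to 667 RPKM in non-tumor tissue (median 224), a difference of −3.92 (SE 0.58, adjusted p = 1.72e-05). Reg3g had a median of 2.01 RPKM in tumors (0.788 to 31.6) and 11.8 RPKM in non-tumor tissue (0.2496 to 149), a difference of −2.84 (SE 0.89, adjusted p = 0.0104), with the call lost as deposited (−1.30, adjusted p = 0.160) and when scaled to the sum outside acinar enzymes and hormones (−1.91, adjusted p = 0.0510). Reg genes lie in a family of similar sequences, and reads may be split among them.

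In sterol and fatty acid synthesis Scd1, a fatty acid desaturase, and Insig1, which holds back sterol synthesis, were among the largest centred falls. Scd1 had a median of 1.16 RPKM in tumors (0.2695 to 3.49) and 1.17 RPKM in non-tumor tissue (0.742 to 5.28) and a centred difference of −1.88 (SE 0.25, adjusted p = 5.35e-06), with −0.34 as deposited. Insig1 had a median of 7.87 RPKM in tumors (4.27 to 9.92) and 8.24 RPKM in non-tumor tissue (5.46 to 11.3) and a centred difference of −1.73 (SE 0.17, adjusted p = 1.47e-07), with −0.19 as deposited.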
